A study of Patiria miniata with 16 samples.

Results

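FoxF1-like (LOC119737216), FoxF1-B-like (LOC119739333) and HNF3-gamma-like (LOC119739356, product name hepatocyte nuclear factor 3-gamma-like) are 3 forkhead transcription factor genes of the bat sea star Patiria miniata, taken by gene name from the 27818 genes of the deposited count table. They were chosen by their measured levels in treated and control embryos of these same libraries, so every value of theirs that sets 1 group against another is given below as a description with no test. The libraries hold polyA RNA from pools of at least 200 whole wild-type embryos, sequenced in a stranded, paired-end way, 2 libraries in each of 8 groups. Treated embryos were cultured in sea water with beta-aminopropionitrile (BAPN), which blocks the lysyl oxidase enzymes and with them the cross-linking of collagen, in a study that placed its question between the collagen matrix and germline gene expression. The treated groups were BAPN from hatched blastula to day 2, from mid gastrula to day 3, from hatched blastula to day 4, from mid gastrula to day 4, and a recovery group that had BAPN from hatched blastula to day 2 and none from then to day 4. Each treated group held 1 library at 1.2 mM and 1 at 0.8 mM BAPN, so its spread contains any difference between doses. The controls were untreated embryos of day 2, day 3 and day 4. Nothing in the labels tells if both libraries of a group had their own culture or parents, and embryos were pooled, so SDs, SEs and p-values carry library-to-library spread alone, which may be technical. In whole embryos, fewer cells of a type and less RNA per cell cannot be told apart.

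Forkhead factors bind DNA through a shared winged-helix domain and are sorted into lettered families. FoxF factors are known from the splanchnic mesoderm, the layer that makes the muscle around the gut, where in vertebrates they respond to hedgehog signals from the endoderm, and in sea urchins foxF marks muscle precursors of the coelomic pouches. HNF3 is the older name of the FoxA family, whose members open chromatin in early endoderm and in sea urchins and sea stars belong to the endoderm regulatory network. FoxQ1 factors are a further family, and in many animals genes of the FoxQ1, FoxF, FoxC and FoxL1 families lie close together on a chromosome.

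The names of 2 of the 3 genes went against the deposited annotation, so the product names are used below only as names. The closest Swiss-Prot entry listed for FoxF1-like was Forkhead box protein Q1 of mouse, and that listed for HNF3-gamma-like was Forkhead box protein Q1 of rat. The closest entry of FoxF1-B-like was Forkhead box protein F1-B of Xenopus laevis, the only FoxF entry in the table. All 3 genes were listed with the forkhead domain. The HNF3 C-terminal domain was listed for 1 gene, FoxA2-like (LOC119740965), whose closest entry was Forkhead box protein A2. In all, 4 genes had Forkhead box protein Q1 as their closest entry. Besides FoxF1-like and HNF3-gamma-like these were FoxQ1-like (LOC119737749) and FoxI2-like (LOC119744897).

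The genes lie on 2 scaffolds of the Pmin_3.0 assembly, and each is annotated as protein-coding. FoxF1-like runs from 18114771 to 18126306 on the plus strand of NW_024037069.1, and its listed length is 3464 bases. FoxF1-B-like runs from 9639800 to 9664044 on the minus strand of NW_024037070.1, with a listed length of 4607 bases. HNF3-gamma-like runs from 9539945 to 9543634 on the minus strand of the same scaffold, with a listed length of 2166 bases, and lies 96165 bases from FoxF1-B-like. Beyond FoxF1-B-like the scaffold carries both FoxC2-B-like genes (LOC119739448 and LOC119739420) and FoxC2-like (LOC119739528), whose closest Swiss-Prot entry was Forkhead box protein L1 of mouse. These 5 forkhead genes span 467.4 kb and are among 11 genes of any kind in that stretch. Forkhead genes lie on 15 scaffolds in all, and no other scaffold holds more than 3.

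Total counts per library ran from 9945801 to 14383817, and 1 count was worth 0.0609 to 0.101 CPM (counts per 1000000 counts of the library, scaled with TMM factors of 0.874 to 1.143). Ribosomal RNA genes held under 1% of counts except in 3 libraries, with 2.02% and 1.34% after recovery and 3.2% in replicate 2 of the day 4 controls. Libraries of a group differed by more than counting noise in all 8 groups, with a chi-square per gene of 5.3 to 24.6. All 3 genes passed the filter on low counts. Changes are log2 values ± SE from a single edgeR fit over all 16 libraries, with 2 libraries in each group compared.

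FoxF1-like was higher in every library collected in BAPN than in every control. In day 2 embryos its level was 103 CPM at 1.2 mM and 78.4 CPM at 0.8 mM, against 18 and 17.8 CPM in the controls. In embryos treated from gastrula to day 3 it was 47.6 and 39.3 CPM, against 7.24 and 8.66 CPM in day 3 controls. All 4 treated libraries lay above all 4 controls of these days.

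At day 4 the controls were lower still. Embryos treated from blastula had 80.5 CPM of FoxF1-like at 1.2 mM and 55.9 CPM at 0.8 mM, and embryos treated from gastrula had 26.3 and 25.6 CPM. The day 4 controls had 3.69 and 3.6 CPM, the lowest values of the gene in any group. The lowest level in BAPN, 25.6 CPM, was above the highest control level of any day, 18 CPM.

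The fitted log2 changes of FoxF1-like against controls of the same day were 2.34 ± 0.22 for blastula to day 2 and 2.45 ± 0.23 for gastrula to day 3. They were 4.22 ± 0.26 for blastula to day 4 and 2.83 ± 0.25 for gastrula to day 4. Averaged over the 3 windows with a labelled control (blastula to day 2, gastrula to day 3 and blastula to day 4) the log2 change was 3.00 ± 0.14, which is 8.02-fold. At day 4 a start at blastula went with a log2 level 1.39 ± 0.21 above a start at gastrula. Within BAPN the day 4 level differed from the earlier one by -0.41 ± 0.21 on the log2 scale after a blastula start and by -0.74 ± 0.21 after a gastrula start.

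**Figure D1:**
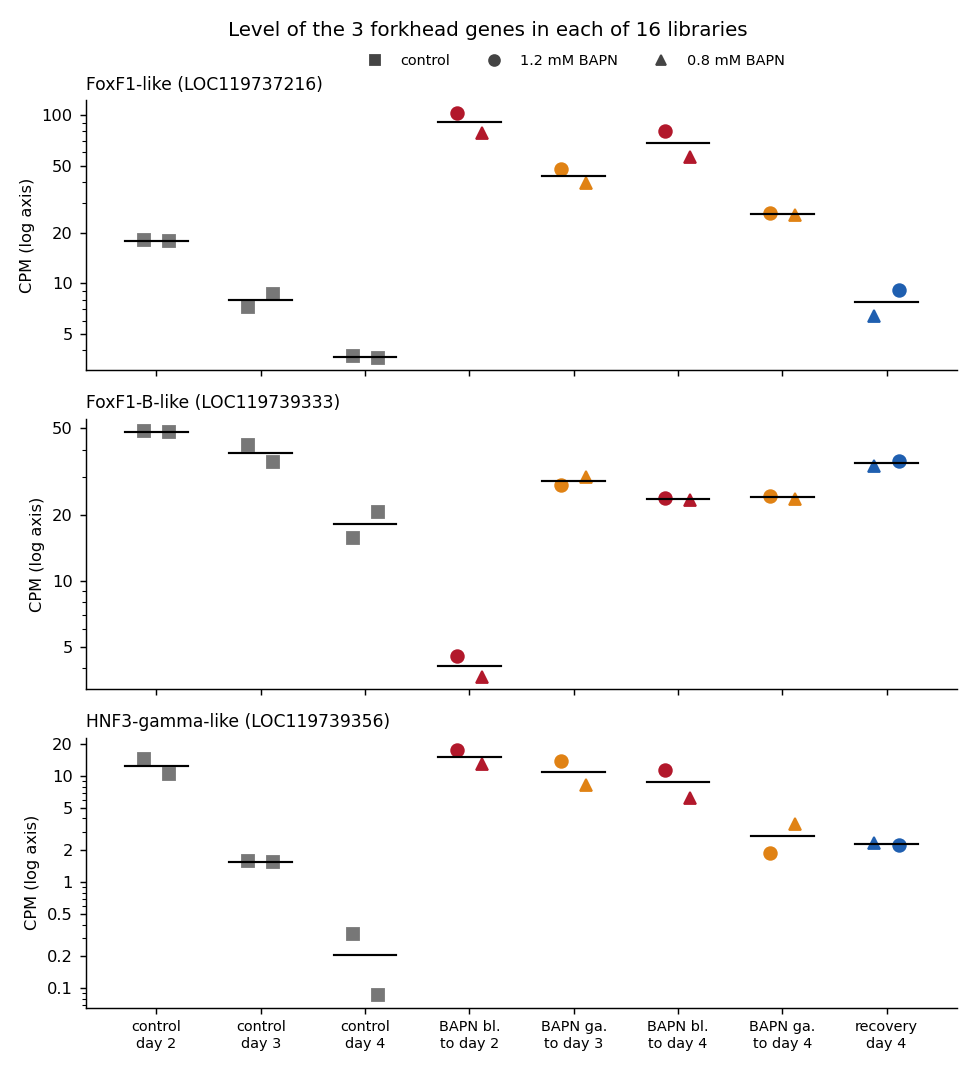
Level of each gene in each of the 16 libraries in CPM on a log axis. Squares are untreated controls, circles 1.2 mM and triangles 0.8 mM BAPN (bl. from hatched blastula, ga. from mid gastrula), and bars are group means of 2 libraries. FoxF1-like is above 25 CPM in all 8 libraries in BAPN and at most 18 CPM in controls. FoxF1-B-like is under 5 CPM only in the libraries treated to day 2, and HNF3-gamma-like is lowest in day 4 controls.

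One gene overlaps FoxF1-like on the other strand, and its part in these values was not tested. The IST1 homolog (LOC119737217), whose yeast and human relatives act in membrane remodelling, runs from 18096636 to 18119464 on the minus strand and shares 4694 bases with FoxF1-like. The libraries are stranded, but whether the counting used strand is not given in the sources used here, and without strand the reads of an overlapping pair cannot be told apart. The IST1 homolog was also called higher in BAPN. Its level was 120 and 138 CPM in embryos treated to day 2, against 65.7 and 53.1 CPM in the controls. Its log2 changes were 1.12 ± 0.13 (edgeR adjusted p = 5.6e-07) in that window, 0.83 ± 0.13 (3.1e-05) for gastrula to day 3, 2.89 ± 0.14 (2.8e-13) for blastula to day 4 and 2.25 ± 0.14 (1.2e-11) for gastrula to day 4. Of all genes tested 41.5%, 32.2%, 51.7% and 46.1% were called in these windows.

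The proportion of counts between the overlapping genes was not constant. FoxF1-like had 85.7 and 57 counts per 100 counts of the IST1 homolog in embryos treated to day 2, 27.4 and 33.5 in their controls, 16 and 13 after blastula to day 4, and 5.72 and 5.83 in day 4 controls. In untreated embryos the IST1 homolog differed by a log2 value of 0.09 ± 0.13 between day 4 and day 2 (adjusted p = 0.65), and FoxF1-like by -2.29 ± 0.25, the latter a description with no test. Over the 16 libraries the log2 levels of the overlapping genes had a Pearson correlation of 0.68, a description, since the libraries share groups and the genes share bases.

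**Figure D2:**
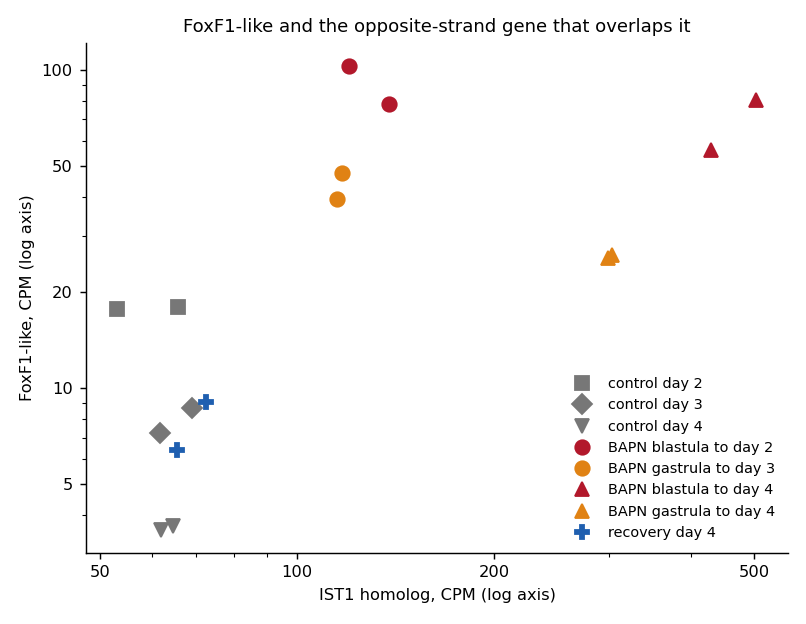
FoxF1-like against the IST1 homolog, which overlaps it on the opposite strand, in CPM on log axes, with 1 point per library (circles, day 2 and day 3 in BAPN; triangles, day 4 in BAPN; grey, controls; plus signs, recovery). The highest IST1 levels, 299 to 504 CPM, are in day 4 embryos in BAPN, and the highest FoxF1-like levels, 78.4 to 103 CPM, include the day 2 embryos in BAPN.

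FoxF1-B-like differed between windows in the sign of its change. In embryos treated from blastula to day 2 its level was 4.52 CPM at 1.2 mM and 3.64 CPM at 0.8 mM, against 48.4 and 48.1 CPM in day 2 controls. This is a log2 change of -3.56 ± 0.23, an 11.8-fold lower level. No other group of the gene came near these values, since the next lowest library, a day 4 control, had 15.8 CPM.

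The later windows held smaller differences. Embryos treated from gastrula to day 3 had 27.5 and 29.9 CPM of FoxF1-B-like, below both day 3 controls at 42.1 and 35.1 CPM, a log2 change of -0.43 ± 0.19. At day 4 the treated libraries lay just above the controls, which had 15.8 and 20.8 CPM. They had 23.9 and 23.5 CPM after a blastula start, a log2 change of 0.37 ± 0.20, and 24.6 and 23.7 CPM after a gastrula start, a log2 change of 0.40 ± 0.20. Both day 4 changes are about 2 SEs from 0, a description with no test. Treated and control libraries did not overlap, but the share of all genes without overlap was not computed. Of all genes tested 51.7% and 46.1% were called in the day 4 windows with blastula and gastrula starts, in either direction.

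Embryos kept in BAPN from blastula therefore had more FoxF1-B-like RNA at day 4 than at day 2, by a log2 value of 2.53 ± 0.23, while untreated embryos had less. At day 4 the start of treatment made a log2 difference of -0.03 ± 0.20 between blastula and gastrula starts. The mean over the 3 windows, a log2 value of -1.20 ± 0.12, rests on windows of opposite sign. With library sizes scaled by total counts alone, which lowers the median of all genes in these windows, the gastrula to day 3 change was -0.64, against a median of -0.25 over all genes. The day 4 changes were then smaller, 0.17 after a blastula start and 0.31 after a gastrula start. The medians of all genes were -0.3 and -0.18 there, against -0.1 and -0.08 with TMM factors. The lower of the blastula-start libraries (20.8 CPM) then stood beside the higher control (20.7 CPM).

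HNF3-gamma-like was near its control level at day 2 and far above it later. In embryos treated to day 2 its level was 17.6 CPM at 1.2 mM and 13 CPM at 0.8 mM, and in the controls 14.6 and 10.5 CPM. These groups overlapped, and the log2 change was 0.28 ± 0.43. Embryos treated from gastrula to day 3 had 13.9 and 8.2 CPM, against 1.58 and 1.54 CPM in day 3 controls, a log2 change of 2.81 ± 0.48.

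In day 4 controls the gene was close to the limit of detection, with 4 counts in replicate 1 and 1 count in replicate 2. Embryos treated from blastula to day 4 had 113 and 67 counts of HNF3-gamma-like, or 11.4 and 6.3 CPM, and those treated from gastrula had 21 and 43 counts, or 1.91 and 3.58 CPM. The fitted log2 changes were 5.33 ± 0.64 and 3.66 ± 0.67. Because the controls summed to 5 counts, ratios of depth-scaled counts with exact 95% intervals are given too, and they were 41.8 (17.6 to 130) and 13.3 (5.4 to 42.2). These intervals cover counting error only, leave out the spread between libraries, and are a description with no test. Without day 4 control replicate 1 the log2 changes were 6.54 and 4.87.

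Averaged over the 3 windows the log2 change of HNF3-gamma-like was 2.81 ± 0.30. At day 4 a start at blastula went with a log2 level 1.68 ± 0.47 above a start at gastrula. Within BAPN the gene differed by a log2 value of -0.79 ± 0.43 between day 2 and day 4 after a blastula start and by -2.0 ± 0.46 between day 3 and day 4 after a gastrula start. Relative to the mean of day 2 controls, HNF3-gamma-like stood at 121% in BAPN at day 2 and 70.4% at day 4 after a blastula start, while day 3 and day 4 controls stood at 12.4% and 1.64%.

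The controls alone show the course of the genes in normal development. These are the same control libraries that entered the choice of the genes, so the values are a description with no test. From day 2 to day 4 FoxF1-like went from 18 and 17.8 to 3.69 and 3.6 CPM, a log2 difference of -2.29 ± 0.25. FoxF1-B-like went from 48.4 and 48.1 to 15.8 and 20.8 CPM, a log2 difference of -1.40 ± 0.20. HNF3-gamma-like differed by -5.84 ± 0.63 on the log2 scale, with 5 counts in all at day 4. In none of the 3 did the day 2 and day 4 controls overlap, and day 4 was the lower. Of all genes tested 38.2% were called between these days, in either direction. The share of all genes without overlap was not computed.

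Day by day the differences were spread unevenly. From day 2 to day 3 FoxF1-like differed by -1.17 ± 0.23 on the log2 scale and HNF3-gamma-like by -3.0 ± 0.48. FoxF1-B-like had 42.1 and 35.1 CPM at day 3, a log2 difference of -0.32 ± 0.19. From day 3 to day 4 the log2 differences were -1.07 ± 0.19 for FoxF1-B-like, -1.12 ± 0.26 for FoxF1-like and -2.84 ± 0.69 for HNF3-gamma-like. Whether the genes differ from one another in their timing was not tested. Without day 4 control replicate 2 the day 3 to day 4 difference of HNF3-gamma-like was -2.21, and over all libraries left out in turn it ran from -4.04 to -2.21.

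**Figure D3:**
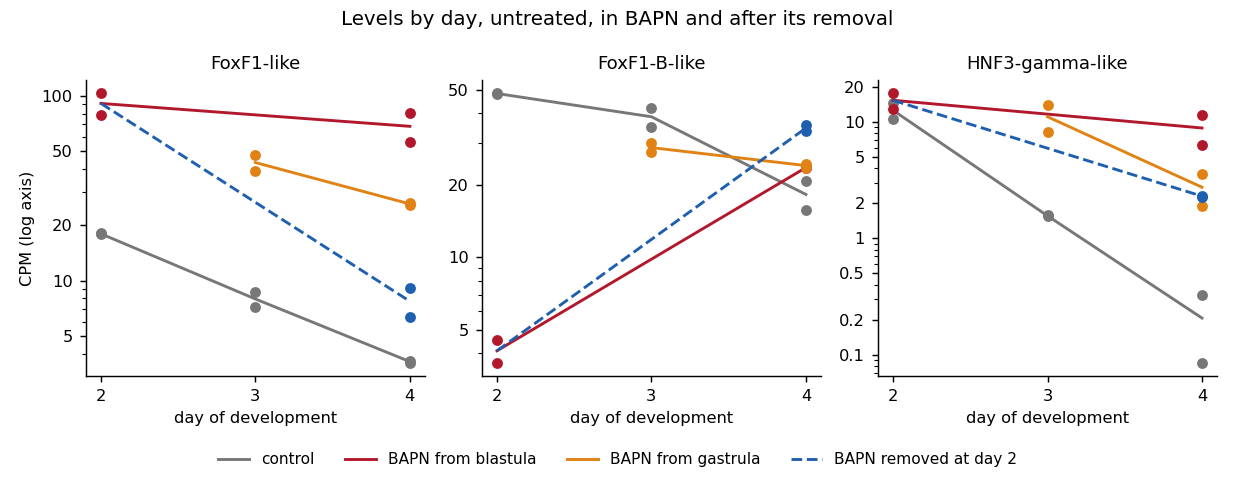
Level of each gene in CPM (log axis) by day of development. Points are libraries and lines join group means of 2 libraries for controls (grey), BAPN from blastula (red), BAPN from gastrula (orange) and BAPN removed at day 2 (blue, dashed, starting from the day 2 treated group). The day 4 controls of all 3 genes lie below their day 2 controls, and FoxF1-B-like starts at 4.08 CPM in BAPN and reaches 23.7 CPM in BAPN and 34.6 CPM after removal.

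After BAPN was removed at day 2, all 3 genes were above the day 4 controls in both recovery libraries, and FoxF1-like and FoxF1-B-like overlapped the day 3 controls. Between recovery and day 4 controls 15.9% of all genes tested were called, in either direction. FoxF1-like had 6.38 CPM in recovery replicate 1 and 9.07 CPM in replicate 2, a range that takes in both day 3 controls. It was 1.08 ± 0.26 above day 4 controls on the log2 scale, -3.14 ± 0.23 from embryos kept in BAPN from blastula to day 4, and -0.04 ± 0.24 from day 3 controls. The last difference turned to 0.18 without recovery replicate 1.

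FoxF1-B-like had 33.7 and 35.6 CPM in the recovery libraries, a level 3.08 ± 0.22 above that of embryos treated to day 2 on the log2 scale. It was 0.92 ± 0.20 above day 4 controls, 0.55 ± 0.19 above embryos kept in BAPN and -0.16 ± 0.19 from day 3 controls, with which it overlapped. HNF3-gamma-like had 31 and 29 counts, or 2.33 and 2.27 CPM, between both day 3 controls and the embryos kept in BAPN. Its ratio to day 4 controls was 11 (exact 95% interval 4.45 to 35), an interval that covers counting error only and is no test. Its fitted log2 difference from day 4 controls was 3.40 ± 0.67, or 4.6 without day 4 control replicate 1. Against day 3 controls the log2 difference was 0.55 ± 0.49, and against embryos kept in BAPN -1.94 ± 0.47.

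Ordered by level, the groups of FoxF1-like ran from blastula to day 2 (mean 90.6 ± 17.3 CPM, SD, n = 2) through blastula to day 4 (68.2 ± 17.4), gastrula to day 3 (43.5 ± 5.87), gastrula to day 4 (25.9 ± 0.524), control day 2 (17.9 ± 0.127), control day 3 (7.95 ± 0.999) and recovery (7.73 ± 1.90) to control day 4 (3.64 ± 0.0605). Neighbours overlapped between blastula to day 2 and blastula to day 4, and between control day 3 and recovery. For FoxF1-B-like the order was control day 2 (48.3 ± 0.231), control day 3 (38.6 ± 4.93), recovery (34.6 ± 1.32), gastrula to day 3 (28.7 ± 1.74), gastrula to day 4 (24.2 ± 0.601), blastula to day 4 (23.7 ± 0.283), control day 4 (18.3 ± 3.55) and blastula to day 2 (4.08 ± 0.616). Control day 3 overlapped recovery, and gastrula to day 4 overlapped blastula to day 4. HNF3-gamma-like was highest in blastula to day 2 (15.3 ± 3.25), control day 2 (12.6 ± 2.87), gastrula to day 3 (11 ± 4.01) and blastula to day 4 (8.85 ± 3.61), and each of these overlapped its neighbour in that order. It was lower in gastrula to day 4 (2.74 ± 1.19) and recovery (2.30 ± 0.0426), which overlapped, and lowest in control day 3 (1.56 ± 0.0278) and control day 4 (0.207 ± 0.171).

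Per length the genes compare as follows, in mean CPM per kb of listed gene length. In day 2 controls FoxF1-B-like had 10.5, HNF3-gamma-like 5.80 and FoxF1-like 5.16. In embryos treated from blastula to day 2 FoxF1-like had 26.2, HNF3-gamma-like 7.04 and FoxF1-B-like 0.886, the reverse order of the FoxF-named pair. FoxA2-like, the gene with the HNF3 domain, had 269 in day 2 controls and 207 in embryos treated to day 2.

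Each treated group held 1 library at each dose, so dose was balanced over the groups. Whether dose entered the choice of the genes is not recorded. It was tested over the 10 treated libraries, recovery included, with the group as a covariate. FoxF1-like was higher at 1.2 than at 0.8 mM in 5 of 5 groups, by 0.04 to 0.53 on the log2 scale, and the fitted difference was 0.34 ± 0.11 (edgeR adjusted p = 0.51). HNF3-gamma-like was higher at 1.2 mM in 3 of 5 groups, with a fitted difference of 0.28 ± 0.28 (adjusted p = 0.90), and FoxF1-B-like had 0.04 ± 0.14 (adjusted p = 0.98). None of the 3 passed. Of 16558 genes tested 0.0121% were called, namely BANP-like (LOC119737625, 0.82 ± 0.12) and the uncharacterized LOC119732483 (0.87 ± 0.13), both with adjusted p = 0.03 and both named after their values were seen. At an unadjusted p under 0.05 there were 1188 genes, and DESeq2 called 53. Leaving out 1 library gave 0 to 14 genes, with 0 without the 1.2 mM library of blastula to day 2 or of blastula to day 4 and 14 without either recovery library.

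FoxA2-like (LOC119740965), named for the pioneer factor of early endoderm, was called lower with time in controls. Its mean level was 1030 ± 63.4 CPM in day 2 controls, 492 ± 46.6 in day 3 controls and 347 ± 8.27 in day 4 controls, a log2 change of -1.57 ± 0.12 from day 2 to day 4 (edgeR adjusted p = 1.6e-09). In BAPN it was 795 ± 63.0 CPM at day 2, 729 ± 68.2 at day 3, and 841 ± 73.5 and 700 ± 21.2 at day 4 after blastula and gastrula starts. Its log2 changes were -0.38 ± 0.12 (adjusted p = 0.014), 0.57 ± 0.12 (0.00063), 1.28 ± 0.12 (9.9e-09) and 1.01 ± 0.12 (3.8e-07) in the same windows. It was called lower at day 2 and higher in the 3 later windows, with recovery 0.48 ± 0.12 above day 4 controls (adjusted p = 0.0062).

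FoxQ1-like (LOC119737749), of the genes closest to FoxQ1, had its highest level in day 4 controls. Its mean level was 6.82 ± 0.551 CPM in day 4 controls and at most 1.70 CPM in any other group. It was called lower than day 4 controls in blastula to day 4 (log2 change -3.56 ± 1.37, edgeR adjusted p = 0.035), in gastrula to day 4 (-3.48 ± 1.36, 0.041) and in recovery (-4.83 ± 1.48, 0.029), with 12, 14 and 6 counts against 163. FoxI2-like (LOC119744897) was called higher in BAPN at day 2 (1.82 ± 0.64, adjusted p = 0.028) and lower in blastula to day 4 (-1.93 ± 0.68, 0.021).

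Of the 24 other genes with a forkhead product name 20 passed the filter on low counts. Averaged over the 3 windows, 6 were called higher in BAPN and 7 lower, and 7 did not pass, beside 58.3% of all genes called. The median log2 change of the 20 was -0.08, and that of all genes -0.07. In blastula to day 4, 1 was called higher and 10 lower (51.7% of all genes were called in either direction and 27.3% lower), with a median of -0.39 against -0.10 for all genes. The 1 higher gene, named after its value was seen, was FoxA2-like, and the count rose to 3 without the 1.2 mM library of that group and to 2 without gastrula to day 3 replicate 2 or either gastrula to day 4 library.

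Of the 6 called forkhead genes with the largest mean change over the windows, some changed in only part of them. FoxC2-like (LOC119739528), at the far end of the cluster from HNF3-gamma-like, had no count in any of the 8 libraries in BAPN. It had 4 and 6 counts in day 2 controls, 34 and 23 in day 3 controls, 16 and 15 in day 4 controls and 17 and 19 in recovery. With 3 counts per group put in place of 0, it was 3.21-fold lower in blastula to day 2 and 14.6-fold lower in gastrula to day 3. It was 8.89-fold lower in blastula to day 4 and 9.97-fold lower in gastrula to day 4. These values leave out counting error in the controls. With that error counted, exact 95% intervals of the ratio ran from 0 up to 0.464, 0.087, 0.147 and 0.131 in the same order. In blastula to day 2 its edgeR adjusted p was 0.05, at the threshold. Recovery and day 4 controls differed by a ratio of 1.06 (exact 95% interval 0.639 to 1.78).

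FoxB1-like (LOC119741688), a relative of a neural factor of vertebrates, had a mean log2 change of -3.50 ± 0.44 (edgeR adjusted p = 2.5e-05), with 0.296 CPM in blastula to day 2 against 27.3 in controls and 25.7 in gastrula to day 3 against 31.4 (adjusted p = 0.76 in that window). A second gene of the same product name, LOC119721710, was called the other way, with a mean of 1.07 ± 0.23 (0.002). It had 220 CPM in blastula to day 2 against 88.7 in controls. FoxD3-like (LOC119728394), a relative of a neural crest factor of vertebrates, had a mean of -1.90 ± 0.16 (3.5e-08) that hid a difference between windows. Its log2 change was -2.94 ± 0.30 (6.3e-07) in blastula to day 2 and -2.94 ± 0.29 (3.4e-07) in blastula to day 4, but 0.18 ± 0.26 (0.67) in gastrula to day 3, with 92.3 CPM against 81.4. The FoxC2-B-like genes LOC119739448 and LOC119739420, neighbours of FoxF1-B-like, had means of -1.64 ± 0.33 (0.00019) and -1.29 ± 0.29 (0.00054), though neither was called in blastula to day 2 (0.054 and 0.63). These 2 carry the same product name, as do both FoxB1-like genes. Sequences were not compared, so whether reads were split between copies is not known, and the separate values of such genes may be uncertain. FoxS1-like (LOC119746291) was higher in blastula to day 2, with 34 and 32 counts and none in its controls. That is 22.9-fold with 3 counts put in place of 0 for the control group, and the exact 95% interval of the ratio started at 18.1. FoxS1-like was not called in the later windows (adjusted p = 0.26 to 0.53).

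**Figure D4:**
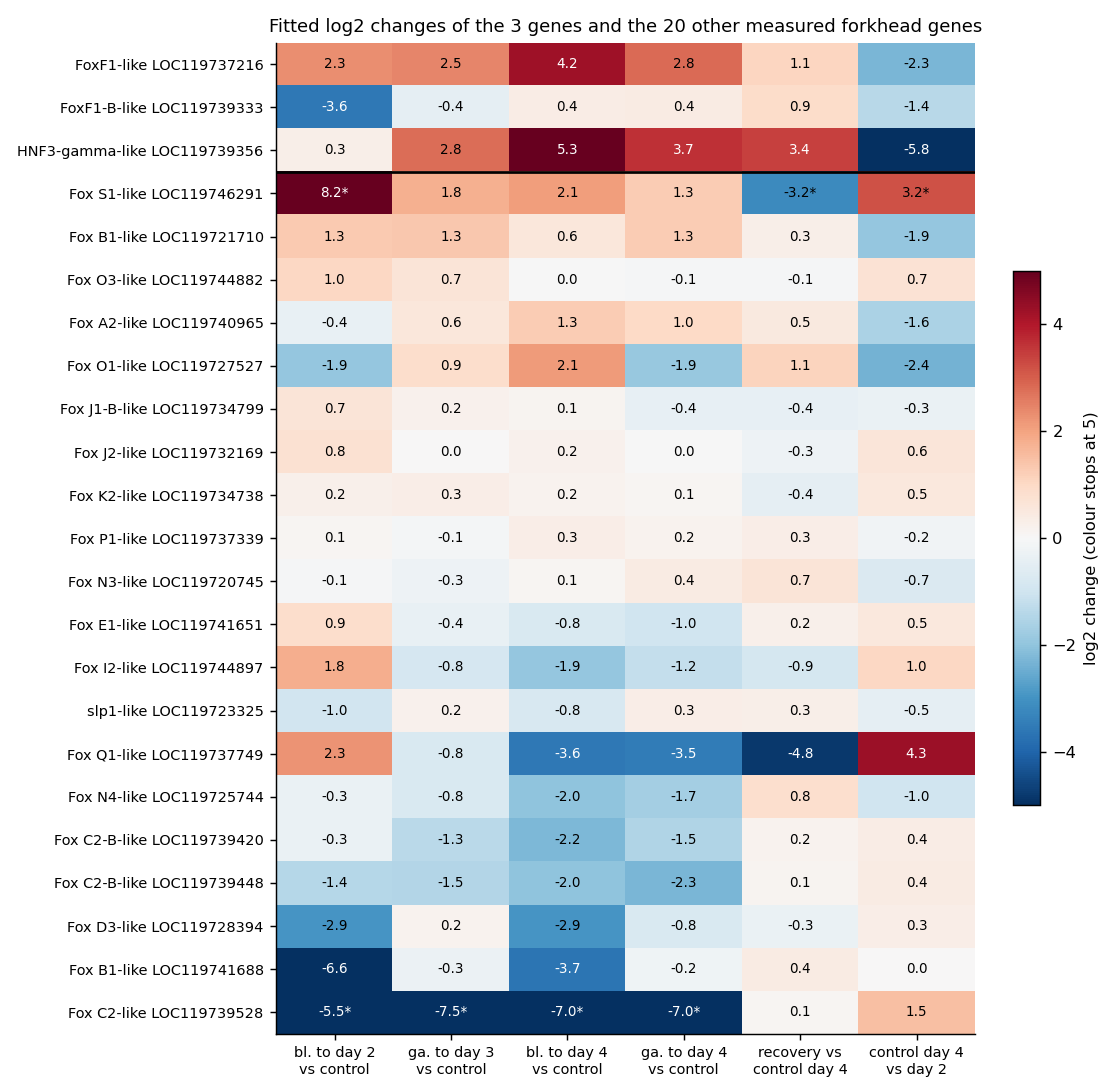
Fitted log2 changes of the 3 genes (above the line) and of the 20 other measured forkhead genes, ordered by their mean change over 3 windows, for the 4 BAPN windows against controls of the same day, for recovery against day 4 controls and for day 4 against day 2 controls (bl. from hatched blastula, ga. from mid gastrula). An asterisk marks a comparison in which 1 group had no count, so that the fitted value is no bound. The rows of FoxF1-like and HNF3-gamma-like are positive in all 4 windows, and FoxF1-B-like is at -3.6 in the first and 0.4 in both day 4 windows.

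In recovery against day 4 controls, 3 of the 20 other forkhead genes were called higher and 2 lower, beside 15.9% of all genes called. The count of higher ones was 1 without day 4 control replicate 2 or recovery replicate 2, the count of lower ones was 0 without any 1 of the 4 libraries, and the count of all genes, 2789, ranged from 1558 to 3224. From day 2 to day 4 in controls 5 were called higher and 4 lower of the 20, beside 38.2% of all genes called, with a median log2 change of 0.34 against 0.09 for all genes. The 5 became 0 without day 2 control replicate 2 and 2 without day 4 control replicate 1. No other forkhead gene was called for dose by edgeR.

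Around the genes, neighbours on the scaffold had changes of either sign. Between HNF3-gamma-like and FoxF1-B-like, broad-minded-like (LOC119739354) had a mean log2 change of -0.76 ± 0.11 (edgeR adjusted p = 2.3e-06), VPS9 domain-containing protein 1-like (LOC119739474) 0.82 ± 0.15 (5.5e-05), and the acinus-named gene LOC119739473 (apoptotic chromatin condensation inducer) -0.06 ± 0.06 (0.43). Polycystic kidney disease protein 1-like 2 (LOC119739124) had 0.10 ± 0.49 (0.89), and a gastrin/cholecystokinin receptor-like gene (LOC119739126) did not pass the filter. On the far side of HNF3-gamma-like none of the 3 nearest genes was called. Beside FoxF1-like, fatty acid 2-hydroxylase-like (LOC119737291) had 1.6 ± 0.09 (2.7e-12), dynein regulatory complex subunit 4-like (LOC119737290) -0.72 ± 0.13 (5e-05) and the uncharacterized LOC119737787 -0.13 ± 0.23 (0.66). The MEGF10-named LOC119737265 had a mean of 1.40 ± 0.17 (2.2e-07), which came from 3.59 ± 0.32 (6.2e-09) in blastula to day 2 and 0.81 ± 0.28 (0.029) in gastrula to day 3, with -0.22 ± 0.27 (0.53) in blastula to day 4.

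**Figure D5:**
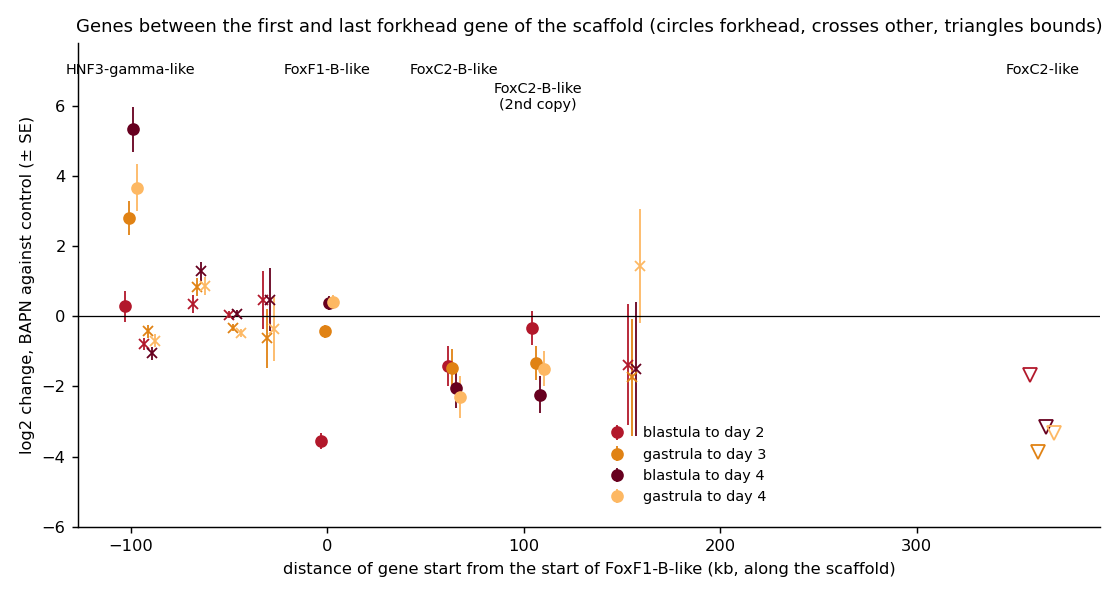
Log2 change in BAPN against controls of the same day (± SE, 2 libraries a group) for the genes between HNF3-gamma-like and FoxC2-like that passed the filter, by the distance of the gene start from that of FoxF1-B-like in kb, points of a gene shifted slightly apart. Circles are forkhead genes and crosses other genes. Open triangles place FoxC2-like, which had no count in BAPN, at a floor of 3 counts per group, with counting error in the controls left out. HNF3-gamma-like reaches 5.33, FoxF1-B-like is at -3.56 at day 2 and near 0 later, and both FoxC2-B-like genes are below 0.

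Genes whose course over the 8 groups was most like that of each gene were ranked among 10585 named and expressed genes by the Pearson correlation of mean log2 CPM over the 8 groups, a description that says nothing of shared control. For FoxF1-like these were the homeobox gene vent1-like (LOC119739858, r = 0.993), even-skipped homolog 2-like (LOC119745851, 0.991), Mediator subunit 10-like (LOC119737962, 0.990), BLOC1 subunit 4-like (LOC119739443, 0.989) and G(o) subunit alpha-like (LOC119737730, 0.989). The correlation does not reflect the size of a change. Group means of FoxF1-like ran from 3.64 to 90.6 CPM. The level of vent1-like ran from 11.1 CPM in day 4 controls to 346 CPM in blastula to day 2, and even-skipped homolog 2-like from 21.6 to 179 CPM. Ranges were narrower for Mediator subunit 10-like (13.7 to 30.3 CPM), BLOC1 subunit 4-like (20.2 to 43.2 CPM) and G(o) subunit alpha-like (12.4 to 30.3 CPM). For FoxF1-B-like they were Mediator subunit 23-like (LOC119729104, 0.982), DnaJ C2-like (LOC119726682, 0.969), lipase maturation factor 2-like (LOC119721176, 0.965), NBAS-like (LOC119740664, 0.958) and the extracellular kinase PKDCC-like (LOC119738814, 0.958). All 5 were lowest in blastula to day 2, the lowest group of FoxF1-B-like itself, so this comes with the ranking. PKDCC-like had 0.405 CPM there against 12.1 CPM in day 2 controls.

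For HNF3-gamma-like the most similar genes were the polycomb gene Psc-like (LOC119719203, 0.988), eIF2 subunit 1-like (LOC119729158, 0.981), the homeobox gene OTX-like (LOC119721166, 0.977), CCDC191-like (LOC119735508, 0.974) and TPR-like (LOC119728418, 0.974). All 5 were lowest in day 4 controls, the lowest group of HNF3-gamma-like itself, so this too comes with the ranking. OTX-like, named for a factor of early endoderm and head patterning, ran from 701 to 1750 CPM. Psc-like ran from 7.5 to 46.5 CPM, eIF2 subunit 1-like from 47.5 to 138, CCDC191-like from 15.1 to 28.9 and TPR-like from 100 to 200. Group means of HNF3-gamma-like covered a wider range, 0.207 to 15.3 CPM. Ranked instead by Spearman correlation over 16 libraries, 1, 0 and 1 of the 5 genes of FoxF1-like, FoxF1-B-like and HNF3-gamma-like were again among the first 5. Among the 3 genes themselves, r over the group means was 0.86 between FoxF1-like and HNF3-gamma-like, -0.48 between FoxF1-like and FoxF1-B-like, and -0.19 between FoxF1-B-like and HNF3-gamma-like.

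The hedgehog list, the signal upstream of FoxF in vertebrates, held 13 genes, all measured. Averaged over the 3 windows 6 were called higher and 3 lower, with a median log2 change of 0.21 (all genes -0.07, 58.3% called). The 4 largest changes were all in genes named dispatched homolog 1-like, relatives of the transporter that releases hedgehog ligands. LOC119730546 had 1.93 ± 0.12 (edgeR adjusted p = 1.1e-11), with 31.6 CPM in blastula to day 2 against 3.60 in controls, and LOC119729073 had -2.66 ± 0.31 (2e-07). The others, LOC119726593 and LOC119728110, had groups at 0 counts, and these copies could share reads. From day 2 to day 4 in controls 4 of the 13 were called higher and 0 lower, with a median of 0.79 against 0.09 and 38.2% called.

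Of the 11 measured endoderm regulators 5 were called higher and 5 lower in BAPN over the 3 windows, with a median log2 change of 0.47 (all genes -0.07, 58.3% called). GATA-binding factor 2-like (LOC119726590), of the family that sets endoderm and blood fates, had 3.20 ± 0.17 (edgeR adjusted p = 3.8e-13), with 20.9 CPM in blastula to day 4 against 1.47 in controls. One cut 2-like (LOC119725341) had -2.27 ± 0.12 (5.9e-13), HNF6-like (LOC119726019) -2.25 ± 0.14 (3.7e-10) and HNF4-gamma-like (LOC119737408) -1.35 ± 0.25 (9e-05), the last called in blastula to day 2 but not in the other windows. From day 2 to day 4 in controls 3 were called higher and 7 lower, with a median of -1.08 (all genes 0.09, 38.2% called).

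Of the 24 measured mesoderm and coelom regulators 9 were called higher and 11 lower over the 3 windows, with a median log2 change of -0.75 (all genes -0.07, 58.3% called). T-box protein 1 (LOC119724510) had 4.25 ± 0.12 (edgeR adjusted p = 6.8e-17), with 312 CPM in blastula to day 4 against 6.22 in controls. Pax-5-like (LOC119738350) had -4.79 ± 0.50 (3.2e-08), with 13.1 CPM in day 4 controls and 0.047 in blastula to day 4. TCF21-like (LOC119727191) and TBX1-like (LOC119730886) were lower, with groups at 0 counts. From day 2 to day 4 in controls 4 were called higher and 6 lower, 10 of 24 beside 38.2% of all genes. These lists were assembled by product name with earlier results known, and nothing is read from them about the forkhead genes.

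Markers of the tissues in which FoxF and FoxA factors are known, and of cilia and neurons, differed between groups. The sum of each list also differed between control days. The summed level of 29 muscle markers was 1620 to 2000 CPM in the 8 libraries in BAPN, 2500 to 4900 CPM in the 6 controls and 3540 to 3790 CPM in recovery. Over the 3 windows 2 of the 27 measured were called higher and 15 lower, with a median log2 change of -0.92, beside 58.3% of all genes called in either direction and a median of -0.07. By window the muscle median was 0 in blastula to day 2, -0.66 in gastrula to day 3 and -1.88 in blastula to day 4. Medians of all genes were -0.01, -0.03 and -0.1 there. The 76 gut markers summed to 10300 to 21500 CPM in BAPN, 4640 to 16500 CPM in controls and 5830 to 7420 CPM in recovery, with 16 of 58 called higher, 22 lower and a median log2 change of -1.52 beside the same 58.3% and -0.07. Control gut sums were 4640 to 4660 CPM at day 2, 5060 to 5070 at day 3 and 16400 to 16500 at day 4. Control muscle sums were 2500 to 2690, 3560 to 3590 and 4650 to 4900 CPM on the same days. Control cilia sums were 4560 to 4880, 5470 to 5540 and 6180 to 6420 CPM. Control neuron sums were 1120, 1190 and 1360 to 1410 CPM. Gut sums in BAPN lay above controls of the same day, except in gastrula to day 4 (13400 to 14800 CPM), which lay below. The median log2 change of gut markers was 0 in blastula to day 2, -0.47 in gastrula to day 3 and -2.58 in blastula to day 4. A sum follows its most abundant genes, so it can rise while the median gene falls. The 36 cilia markers summed to 2230 to 4250 CPM in BAPN and 4560 to 6420 CPM in controls, with 3 called higher, 31 lower and a median of -1.02. The 23 neuron markers summed to 725 to 1080 CPM and 1120 to 1410 CPM, with 3 of 22 called higher, 11 lower and a median of -0.65. In all 16 libraries 3 gut markers and none of the muscle, cilia and neuron markers were at 0. Their part in the levels of the 3 forkhead genes was not tested.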

How the data were processed

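Sequencing was of stranded polyA libraries, per the labels. The deposited values are the authors' raw counts, whole numbers for 16 libraries in 1 table that also holds the annotation, domain and Swiss-Prot columns used above. Neither the aligner nor the counter, nor whether it used strand, is given in the sources used here. Gene coordinates (27818 genes) match the Pmin_3.0 reference table throughout. The 3 genes and all lists were chosen with earlier results of these data known. Counts were analysed in R 4.3.3 with edgeR 4.0.16 (TMM; filterByExpr, minimum count 10 and minimum total 15, which kept 17519 genes; robust quasi-likelihood fit over 8 groups, 8 residual degrees of freedom; adjusted p threshold 0.05). The planned tests of the 3 genes between control days are not used, since these libraries entered the choice of the genes. Dose was fitted on 10 libraries (16558 genes, 4 residual degrees of freedom). SEs are the log2 change over the root of its F. CPM correlations used a prior count of 2 and a mean log2 CPM of at least 1. Scripts were tested on simulated counts. There 31% of 2-fold and 66% of 4-fold changes were recovered in blastula to day 2 against controls, and 63% and 86% over the mean of 3 windows. Only 100 genes at each fold size were changed among 17519, far fewer than were called in the data, so these rates are not those of the data. A gene not called in 1 window can still have changed. Named genes were the 3 genes, 5 most similar genes each, up to 6 forkhead genes and 4 genes of each list with the largest called mean change, and 3 neighbours on each side within 100 kb. FoxA2-like, FoxQ1-like and FoxI2-like were added for their annotation, and the second FoxB1-like gene for its name. The recovery against day 3 control values were added as a description. Alternatives were RLE factors, total counts, no filter, DESeq2 1.42.0, non-robust dispersions, the labelled pairs as a block and leaving out each library.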

Additional observations from a re-analysis of the deposited data

Results flagged for a closer look

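FoxF1-B-like moved in opposite directions in different windows. Both libraries treated from blastula to day 2 lay below both controls (log2 change -3.56), and so did both treated from gastrula to day 3 (-0.43). Both libraries treated from blastula to day 4 lay above both day 4 controls (0.37), and so did both treated from gastrula to day 4 (0.40). With library sizes scaled by total counts alone the day 4 values were 0.17 and 0.31, beside medians of -0.3 and -0.18 over all genes. The difference between windows was not tested, because these contrasts bear on how the gene was chosen. In the order given, 41.5%, 32.2%, 51.7% and 46.1% of all genes tested were called in these windows, in either direction. How many genes changed side between windows was not counted. Groups of 2 libraries allow no check for a single outlying library.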

How the results depend on the processing

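Of 1020 recomputed log2 changes of the 3 genes, 1015 had the sign reported, 3 were at 0 and 2 had the other sign, the last both for FoxF1-like in recovery against day 3 controls (0.08 and 0.18, each without 1 library). Most of the 1020 came from leaving out 1 library, and in most of those fits it belonged to neither group compared. Such fits could hardly change a sign, so the count is little guide to stability. RLE factors and DESeq2 each gave FoxF1-like 2.77 in gastrula to day 4, and RLE factors gave it -2.27 from day 2 to day 4 in controls. Total counts alone gave it 2.73 and -2.36 there and 2.78 over the 3 windows. Total counts gave FoxF1-B-like -3.8 in blastula to day 2, -0.64 in gastrula to day 3, -1.42 over the 3 windows, 3.36 and 0.86 for recovery against blastula to day 2 and to day 4, and -0.13 between blastula and gastrula starts. They gave HNF3-gamma-like 0.49 for recovery against day 3 controls, and moved 10 of 24 group means in CPM by more than their SD. The median of all genes over the 3 windows was then -0.29.

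Genes called by edgeR for dose were 0 with total counts, 128 with no filter, 4 with non-robust dispersions and 53 by DESeq2. Other forkhead genes called higher in blastula to day 4 were 2 with no filter, and those called lower in recovery 1 with total counts. The cause was not tested.

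Leaving out 1 library gave HNF3-gamma-like 4.72 to 6.54 in blastula to day 4, 3.04 to 4.87 in gastrula to day 4, 2.6 to 3.2 over the 3 windows, 2.78 to 4.6 and 0.52 to 0.59 for recovery against day 4 and day 3 controls, and -4.04 to -2.21 and -7.05 to -5.23 from day 3 and day 2 to day 4 in controls. It gave FoxF1-like 2.81 to 2.87 in gastrula to day 4 and -2.33 to -2.29 from day 2 to day 4, and FoxF1-B-like 0.51 to 0.63 for recovery against blastula to day 4. Genes called ranged from 1558 to 3224 (recovery) and 0 to 14 (dose). Other forkhead genes called ranged from 1 to 3 higher in blastula to day 4, 1 to 3 higher and 0 to 2 lower in recovery, and 0 to 5 higher from day 2 to day 4. A lone library in a group was assumed to vary like the other groups.

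The labels name a treated partner for each control. Deviations of these partners from their group means had correlations of -0.01 to 0.02 over genes, so no effect shared by partners was seen. With 2 libraries a group, and a different dose in each treated library, this does not settle whether partners shared a culture. With the 6 labelled pairs as a replicate block, the log2 changes over the 3 windows were 2.95, -1.24 and 2.74 for FoxF1-like, FoxF1-B-like and HNF3-gamma-like, and the count of genes called in blastula to day 2 was 6604 against 7264. Depth limits HNF3-gamma-like most, with 5 counts in day 4 controls.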
